A study of Homo sapiens with 6 samples.

Results

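SR proteins are RNA-binding splicing factors that carry a domain rich in arginine and serine beside one or a pair of RNA recognition motifs. They bind exonic enhancers, recruit the U1 and U2 particles to neighbouring splice sites, and are controlled by phosphorylation of the arginine-serine domain. Most of their genes also make transcripts that include a poison exon, a conserved exon with a premature stop codon, so that the transcript is removed by nonsense-mediated decay. The genes examined here were SRSF1, SRSF2, SRSF3, SRSF4, SRSF5, SRSF6, SRSF7, SRSF9, TRA2A and TRA2B. They are 10 of 20037 protein-coding genes on the nuclear chromosomes, taken as a list of named genes. The list was made with earlier results of these data known, so it is not an unselected sample. Other SR family genes were left out of it and are counted separately below. A peak was counted for a gene when its summit lay inside the gene's RefSeq span.

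The peaks came from RNA immunoprecipitation followed by sequencing (RIP-seq) in HEK293T, an established human embryonic kidney cell line that expresses SV40 large T antigen. The overexpressed gene, SNRPD2, encodes SmD2. The sample titles do not name the precipitated protein. SmD2 is a subunit of the ring that surrounds most spliceosomal small nuclear RNAs. The labels give 3 samples from cells overexpressing SNRPD2 and 3 control samples. The peaks of each overexpression sample were available as its own list. Lists of the control samples were not analysed, so no difference between the groups could be measured and no test was made. The labels do not say how SNRPD2 was expressed or whether each replicate was grown separately, so differences among the replicates may be technical only.

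In replicates 1, 2 and 3 there were 30111, 160931 and 65097 peaks. Replicate 3 stood apart, with a median peak width of 12210 bp against 77 bp and 40 bp in replicates 1 and 2, but no peak wider than 218 bp had its summit in an SR protein gene there. The overexpressed gene, SNRPD2, had a peak of 78, 80 and 78 reads in the 3 lists, and no peak whose reads could be recovered had more in the same list. The narrowest peaks of the lists were 39, 40 and 39 bp wide. Whether reads at the same position were limited before peak calling was not tested. These maxima may therefore be a ceiling, and they are not read as a ranking or as agreement of the lists. In the text below, the reads of a peak are the reads at its summit, recovered from the deposited fold and p-value. The fold is the authors' scaled read pileup plus 1 over the caller's background plus 1, and its size is comparable only within a list. The q-value is the p-value after the caller's correction for the whole list.

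All 10 genes had a peak in at least one list, and most had one in every list. A summit lay in 8 of the 10 in replicate 1, where SRSF3 and SRSF5 had none. All 10 had one in replicate 2, and 9 had one in replicate 3, where SRSF5 again had none. Of all protein-coding genes, 45.3%, 76.7% and 65.5% had a summit in replicates 1, 2 and 3, and 38.8%, 72.3% and 53.8% of the 9721 whose span was within the range of these 10 (3297 to 34158 bp). Thus 8 of the 10 genes had a summit in every list, against 38.5% of protein-coding genes. Among those of the same range of spans, 27.3% did. With peaks of at least 10 reads the count was 5 of 10, against 7.46% of protein-coding genes. When summits that also lie in another gene were left out, it was 6 of 10, and no background was made for that count. Neither background takes account of how abundant a transcript is, so these shares do not show preferential binding.

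The spans held 21, 38 and 18 peaks in replicates 1, 2 and 3, or 77 in all, between 39 and 318 bp wide. TRA2B held the most, with 5, 11 and 3. TRA2A followed with 3, 5 and 3, and SRSF4 with 2, 4 and 4. SRSF5 held a single peak, in replicate 2. Per length the order changed. SRSF2, the shortest gene at 3297 bp, held 0.910, 0.607 and 0.303 summits per kb of span, and SRSF9 held 0.495, 0.248 and 0.371. TRA2B held 0.213, 0.469 and 0.128, and SRSF4, the longest gene, held 0.0586, 0.117 and 0.117. When the genes were ordered by their mean over the lists, the ranges of all 9 pairs of neighbours overlapped. Over the 10 genes the median was 0.118, 0.227 and 0.122 summits per kb, against 0, 0.142 and 0.0369 over protein-coding genes in the same range of spans.

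**Figure D1:**
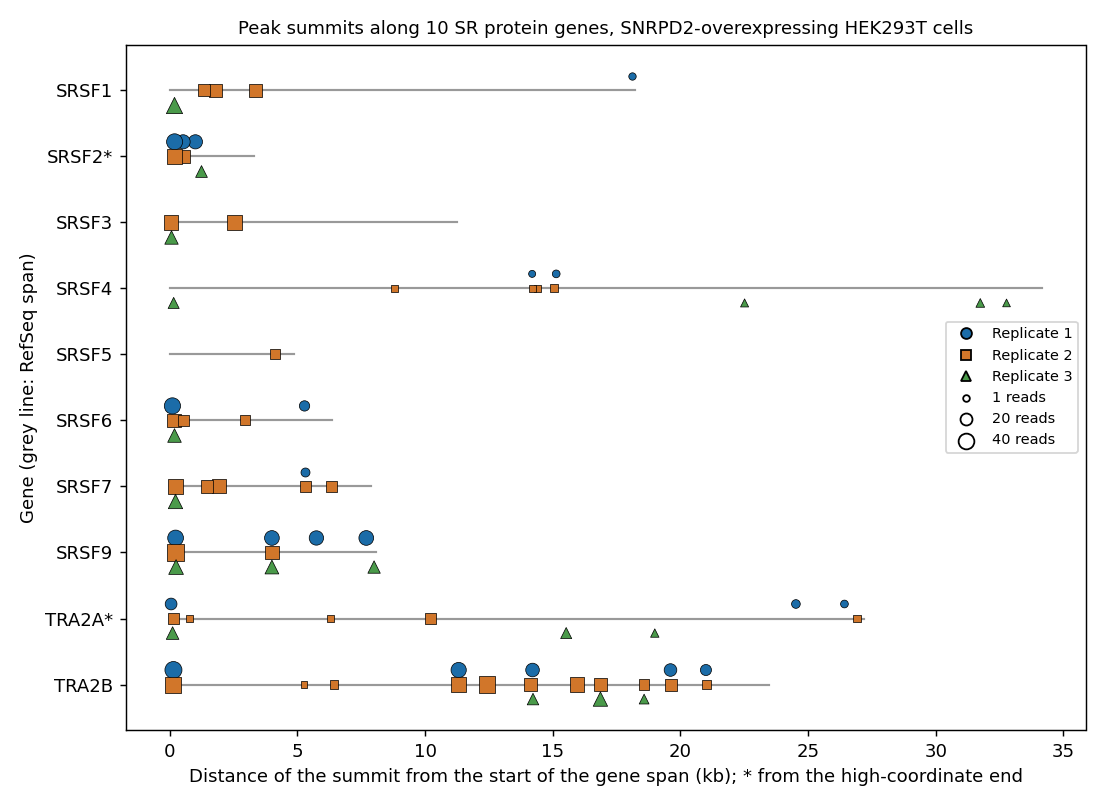
Positions of the 77 peak summits along the 10 genes. The horizontal axis is the distance in kb from the start of the RefSeq span (for SRSF2 and TRA2A, marked with an asterisk, from the end with the higher coordinate), grey lines are the spans, and marker size gives reads at the summit. Every gene except SRSF5 has a mark at its left end, and TRA2B has a second run of marks from 11.3 kb on.

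The peaks in SR protein genes held many reads over a high background. Median reads were 28, 20 and 20.5 in replicates 1, 2 and 3, against 5, 1 and 2 for peaks in all protein-coding genes. The caller's background at the same summits had a median of 11.9, 9.03 and 3.94 reads, against 0.195, 0.0722 and 0.0316. The median folds of the SR protein genes were 2.41, 2.05 and 2.91, against 2.74, 1.94 and 1.50. The strongest peak of each gene lay at a median percentile of 58.6, 92.0 and 89.0 of its own list by −log10 p. For the strongest peaks of all protein-coding genes with a peak the medians were 69.6, 88.3 and 36.7, and for those of the same range of spans 64.8, 83.9 and 74.6. The SR protein genes were thus below both medians in replicate 1 and above both in replicates 2 and 3. In replicate 3, however, 75.7% of all peaks were wider than 1000 bp, and the median −log10 p of that list was 2.10. Those wide peaks enter the replicate 3 figures for other genes and the ranks of all genes there. Ranked among peaks of at most 1000 bp, the SR protein medians averaged 74.6 over the lists, against 79.9 with all peaks. That ranking was not made for the other genes. A q-value under 0.05 was reached by 7 of the 77 peaks, none of them in replicate 1. In replicates 1, 2 and 3 these were 0%, 13.2% and 11.1% of the peaks. For peaks in all protein-coding genes the shares were 4.58%, 4.35% and 1.98%. The 7 peaks lay in 5 of the 10 genes, SRSF3, SRSF4, SRSF7, SRSF9 and TRA2B. Such a peak in any list was held by 22.3% of all protein-coding genes and 15.6% of those of the same range of spans. By list, 0, 3 and 2 of the 10 genes had one, against 5.21%, 18.3% and 4.01% of all protein-coding genes and 3.47%, 12.1% and 2.83% of those of the same range.

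**Figure D2:**
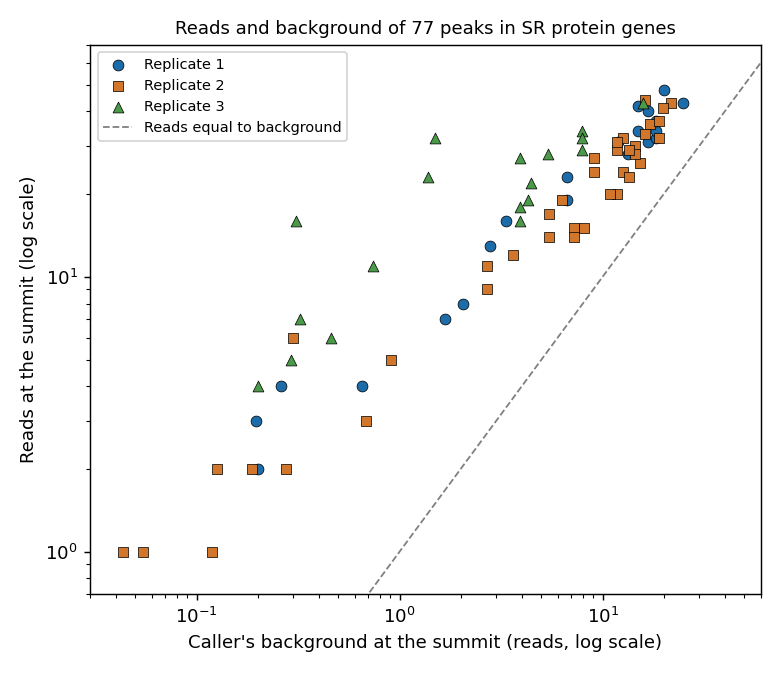
Reads at the summit against the caller's background in reads, both on log scales, for the 77 peaks. Each mark is a peak and the dashed line marks equal values. Peaks of up to 48 reads sit over backgrounds of up to 25.0 reads, nearest the line, and the peak farthest above it is the SRSF4 peak of replicate 3, with 16 reads over 0.307.

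Peaks that overlapped between lists were joined into sites. The 77 peaks made 54 sites, of which 5 were listed in all 3 replicates, 13 in a pair of them and 36 in one. Replicates 1 and 2 shared 9 sites that replicate 3 lacked, replicates 2 and 3 shared 4 that replicate 1 lacked, and replicates 1 and 3 shared none without replicate 2. Of the 21 replicate 1 peaks, 66.7% overlapped a replicate 2 peak, against 34.98% of the replicate 1 peaks in all protein-coding genes. Of the 38 replicate 2 peaks, 36.8% overlapped replicate 1, against 8.31%. Of the 18 replicate 3 peaks, 27.8% overlapped replicate 1 and 50% overlapped replicate 2, against 16.5% and 57.7%. The replicate 3 peaks behind those last shares had a median width of 7411 bp, against 84 bp in the SR protein genes. Wide peaks were not removed from them, so these shares are not like for like. Overlap with replicate 3 as the partner was 23.8% and 23.7% for replicates 1 and 2, against 29.2% and 47.2%, where the wide peaks of replicate 3 enter the second figures. Without peaks wider than 1000 bp those second figures were 14.5% and 4.47%. Among peaks of at least 10 reads, the SR protein genes were above the other genes in 3 of the 6 directions and below them in 3. At that depth 73.3% of 15 replicate 1 peaks overlapped replicate 2, against 47.8%, and 39.3% of 28 replicate 2 peaks overlapped replicate 1, against 34.8%. Of 14 replicate 3 peaks, 64.3% overlapped replicate 2, against 48.1%, and 35.7% overlapped replicate 1, against 37.2%. Overlap with replicate 3 was 33.3% for replicate 1, against 35.9%, and 32.1% for replicate 2, against 33.9%.

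A stretch of at least 20 bp covered by all 3 lists lay in 4 of the 10 genes, SRSF6, SRSF9, TRA2A and TRA2B, against 10.8% of all protein-coding genes and 7.03% of those in the same range of spans. Without replicate 3 the count was 7, since SRSF2, SRSF4 and SRSF7 have sites shared by replicates 1 and 2. The background also rose with depth. Of protein-coding genes with a summit of at least 10 reads in at least 2 lists, 35.5% had such a stretch, as did 4 of the 8 SR protein genes that met that condition. Where every list had such a summit it was 53.2%, and 4 of 5.

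**Figure D3:**
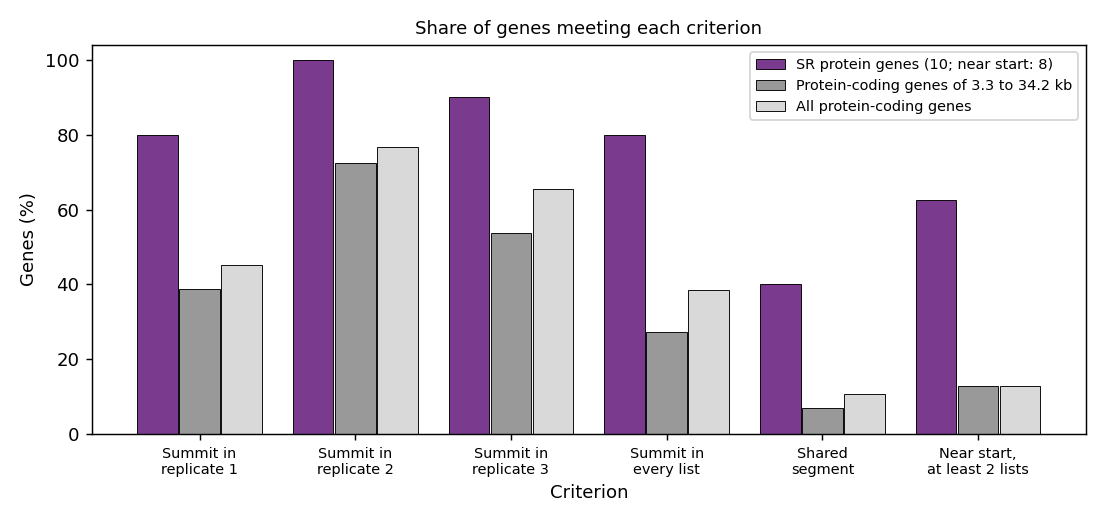
Share of genes, in percent, that met each criterion: the SR protein genes, protein-coding genes within their range of spans, and all protein-coding genes. The SR protein bars are higher at every criterion, for example 80% against 27.3% and 38.5% for a summit in every list, and no test was made of these differences.

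Most of the genes had a summit close to the beginning of the gene. Strand was taken from the RefSeq promoter table, which covered 8 of the 10 genes. In 7 of these 8 a summit lay within 500 bp of the annotated start in at least one list, against 37.3% of 15843 protein-coding genes with a strand and 36.2% of those of the same range of spans. In 5 of 8 (SRSF3, SRSF6, SRSF7, SRSF9 and TRA2B) this held in at least 2 lists, against 13.0% and 12.8%. By list, 3, 5 and 6 of the 8 had such a summit, against 12.7%, 23.7% and 16.5% of all and 13.4%, 23.0% and 15.3% of those of the same range. The count of 5 genes was 2 without replicate 2 and 3 without replicate 3. Among protein-coding genes with a summit of at least 10 reads in at least 2 lists the 2 backgrounds were higher, at 68.4% and 39.8%, and 6 of 6 and 5 of 6 SR protein genes met them. With such a summit in every list they were 70.7% and 45.0%, and 3 of 3 SR protein genes met both. The window of 500 bp was chosen after the summits were seen. Near the other end, 2 of 8 genes had a summit within 500 bp in at least one list, against 21.9% and 23.9%, and 1 of 8 in at least 2 lists, against 5.02% and 5.97%. When the span was divided into 3 equal parts, the first, middle and last held 3, 5 and 7 summits in replicate 1, 15, 8 and 8 in replicate 2, and 6, 3 and 5 in replicate 3. Replicate 1 thus had most summits in the last part and replicates 2 and 3 in the first. The means over the lists were 37.1% ± 15.05, 26.9% ± 6.02 and 36.1% ± 10.4 (SD, n = 3 lists), against 30.7%, 27.9% and 41.4% in all protein-coding genes with a strand and 34.3%, 27.2% and 38.5% in those of the same range of spans. All of these differences were smaller than the SD over the lists. The first 10% of the span held 29.6% ± 11.9 of the summits (SD, n = 3 lists), against 13.8% ± 1.07 in all protein-coding genes with a strand and 18.3% ± 2.95 in those of the same range of spans. The gap to the genes of the same range was smaller than the SD over the lists. Whole gene spans were used, so summits were not assigned to exons, introns, UTRs or poison exons.

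Among the members with a single RNA recognition motif, SRSF3 (SRp20) promotes exon inclusion and export of mRNA. Its span on chromosome 6 runs from 36594362 to 36605600 (GRCh38). A peak at the start had 32 reads and a fold of 1.65 in replicate 2 and 27 reads and a fold of 3.92 in replicate 3, with summits 61 and 38 bp from the start. The lists therefore placed it within 23 bp of each other, while replicate 1 had no peak anywhere in the gene. A second peak, in replicate 2 alone, lay 2.53 kb from the start with 32 reads, and its −log10 q of 1.53 made it the only SRSF3 peak with a q under 0.05. The bases at the start peak are shown because the replicate 3 peak covers all of them and the replicate 2 peak part of them. They are bases 21 to 50 of the transcribed strand counted from the RefSeq start at 1, chr6:36594382-36594411, plus strand, from RefSeq (GRCh38.p14), and capitals mark the 12 bases covered in both replicates.
SRSF3: ggtgagtgagagagttggTTGGTGTTGGGC

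SRSF7 (9G8), a close relative of SRSF3 that also binds through a zinc knuckle, had the strongest peak of all 10 genes by −log10 p. Its span on chromosome 2 runs from 38743599 to 38751494. In replicate 3 the peak near the start had 32 reads, a fold of 6.62 and a −log10 p of 9.51, above 99.5% of that list. In replicate 2 the same site had 33 reads but a fold of 1.97 and a −log10 p of 4.09. The reads were alike and the summits 3 bp apart, at 224 and 227 bp from the start, while the background was 1.49 reads in replicate 3 and 16.3 in replicate 2. Replicate 1 had no peak there. Distances are from the outer start at 38751494, and RefSeq also has an SRSF7 start at 38751361, nearer to both summits. A further site, 5.3 kb from the start, was shared by replicates 1 and 2 with 8 and 14 reads and −log10 p of 2.06 and 2.13, near the lower limit of the lists. The other 3 sites were in replicate 2 alone, with 15 to 30 reads.

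SRSF2 (SC35), a marker of nuclear speckles, is the shortest of the genes, on chromosome 17 from 76734115 to 76737411. The strand table did not cover it. It is known to be transcribed toward lower coordinates, so distances are given from the higher end. One site lay 191 and 179 bp from that end in replicates 1 and 2, with 42 and 36 reads, folds of 2.62 and 2.04 and −log10 p of 5.53 and 4.66. A second lay 523 and 529 bp from it with 31 and 26 reads. Both sites also lie in the span of MFSD11, which overlaps this end of SRSF2, so without strand their reads cannot be assigned to either gene. Replicate 3 had neither site and listed 1 peak, of 19 reads, 1.2 kb from the same end. None of the 6 SRSF2 peaks had its summit in the gene of the microRNA MIR636, which lies within the span.

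Among the members with a pair of RNA recognition motifs, SRSF1 (SF2/ASF), which acts in both constitutive and alternative splicing, had no site shared by any of the lists. Its span on chromosome 17 runs from 57989038 to 58007246. Replicate 1 listed 1 peak of 3 reads, 18.1 kb from the start, which also lies in the noncoding RNA gene LOC101929185. Replicate 2 listed 3 peaks of 24, 24 and 20 reads between 1.35 and 3.37 kb from the start. Replicate 3 listed 1 peak of 43 reads, 175 bp from the start, with a fold of 2.38 and a −log10 p of 2.55. All lists thus had a summit in SRSF1 but at different places.

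SRSF9 (SRp30c), which is closest to SRSF1 in its domains, was the only gene with 2 sites present in all 3 lists. Its span on chromosome 12 runs from 120461672 to 120469748. The site near the start had 40, 44 and 34 reads in replicates 1, 2 and 3, with summits 229, 232 and 248 bp from the start. Its folds were 2.27, 2.61 and 3.21, and its −log10 p of 8.46 in replicate 2 was above 99.3% of that list, with 3.92 and 3.62 in replicates 1 and 3. The second site lay 4.0 kb from the start with 34, 28 and 29 reads and summits within 2 bp of each other. Its −log10 p was 2.33, 3.31 and 2.96, so reads and position were shared where the p-values were modest. Of the other SRSF9 peaks, 1 in replicate 1 and 1 in replicate 3 also lie in GATC, which overlaps the end of the gene.

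SRSF6 (SRp55), on chromosome 20 from 43457896 to 43464243, had a site near its start in all 3 lists. Reads were 43, 29 and 28 in replicates 1, 2 and 3, and summits lay 105, 158 and 159 bp from the start. The folds were 1.67, 2.36 and 3.43 and the −log10 p 2.21, 5.23 and 4.05, so the list with the most reads gave the weakest p. The background there was 25.0 reads in replicate 1, against 11.7 and 5.38 in replicates 2 and 3. Its other peaks were each in one list, 1 of 13 reads in replicate 1 and 2 of 15 and 12 reads in replicate 2. Of 10 annotated pseudogene copies of the SR protein genes, 3 held a summit in any list. One of them, SRSF6P2 on chromosome 17, held 1, 2 and 2 summits in the 3 lists, but it lies inside the span of ZNF624, so these summits cannot be assigned to either. Reads of near-identical copies may be placed at either locus.

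SRSF4 (SRp75), the longest of these proteins and genes, on chromosome 1 from 29147743 to 29181900, held peaks of few reads. Its peaks had 2 to 4 reads in replicate 1 and 1 to 5 in replicate 2, and 3 of the 4 in replicate 3 had 4 to 7. A pair of places near the middle of the gene were shared by replicates 1 and 2. The first, 15.1 and 15.0 kb from the start, had 4 and 5 reads, and the second, 14.2 kb from it in both lists, had 2 and 2. The exception was the start peak of replicate 3, 153 bp from the start, with 16 reads over a background of 0.307, a fold of 4.69, a −log10 p of 7.65 and a −log10 q of 2.41. It was absent from replicates 1 and 2, and it ends at the annotated start. Its summit, and those of 2 of the low peaks, also lie in the span of MECR. The bases shown are part of the stretch that the strong peak covers at this start, and do not include its summit. They are bases 21 to 50 from the RefSeq start, chr1:29181851-29181880, minus strand, from RefSeq (GRCh38.p14), in capitals because the replicate 3 peak covers them all.
SRSF4: GGGGTTCGGCTGCGTCCGTCCCGCCGCCCG

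SRSF5 (SRp40), on chromosome 14 from 69767142 to 69772005, had a single peak, in replicate 2, 4.11 kb from the start and 750 bp from the end of the span. It had 11 reads over a background of 2.71, a fold of 3.24, a −log10 p of 4.56 and a −log10 q of 0.737. SRSF5 was the only one of the 10 genes with no summit within 500 bp of its start or, for SRSF2 and TRA2A, of the higher end.

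**Figure D4:**
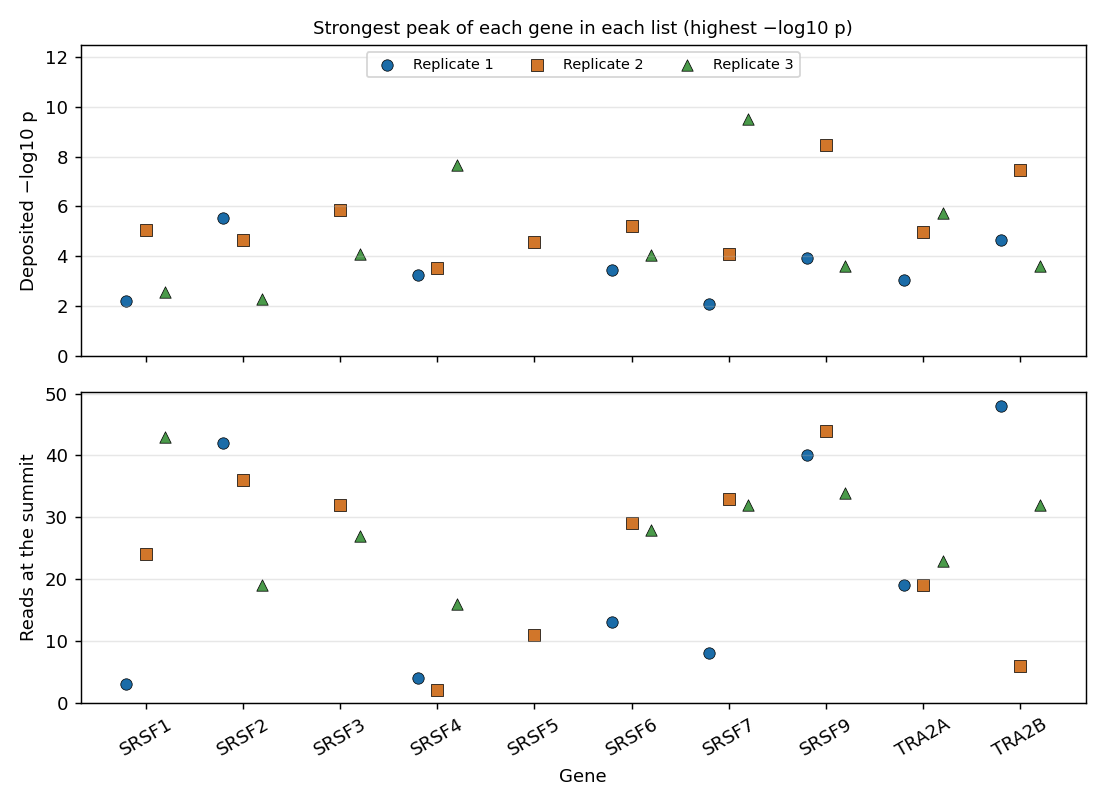
Strongest peak of each gene in each list, chosen by the highest deposited −log10 p. The upper panel gives that −log10 p and the lower the reads at the summit. SRSF7 in replicate 3 (9.51) and SRSF9 in replicate 2 (8.46) are highest in the upper panel, and SRSF3 in replicate 1 and SRSF5 in replicates 1 and 3 have no mark.

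TRA2A and TRA2B are the human homologues of the Drosophila splicing regulator Transformer-2 and carry an arginine-serine domain on both sides of their RNA recognition motif. TRA2A lies on chromosome 7 from 23504780 to 23531981 and, like SRSF2, was not covered by the strand table. It is known to be transcribed toward lower coordinates. Its one shared site was at the higher end, with 19, 17 and 23 reads in replicates 1, 2 and 3 and summits 53, 134 and 112 bp from that end. The folds were 2.48, 2.80 and 5.06 and the −log10 p 3.04, 4.81 and 5.72, and 82 bp were covered by every list. The other 8 sites were in one list each. The strongest, in replicate 2, lay 10214 bp from the higher end with 19 reads and a −log10 p of 4.96, and the rest had 2 to 16 reads.

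TRA2B, on chromosome 3 from 185914558 to 185938014, had 11 sites, of which 7 were in at least 2 lists. The site near its start had 48 and 41 reads in replicates 1 and 2, with summits 145 and 136 bp from the start, folds of 2.29 and 2.01 and −log10 p of 4.65 and 4.99. The 48 reads were the most of any peak in the 10 genes, and replicate 3 had no peak there. Between 11.3 and 21.0 kb from the start lay the other 6 shared sites. The only one in all 3 lists, 14.2 kb from the start, had 28, 27 and 18 reads, folds of 1.98, 2.79 and 2.78 and −log10 p of 2.43, 6.49 and 2.44, and its summits spread over 101 bp. At 11.3 kb replicates 1 and 2 both had 37 reads with summits 2 bp apart, at 16.9 kb replicates 2 and 3 had 29 and 32 reads with summits 3 bp apart, and at 18.6 kb they had 14 and 11 reads with summits 6 bp apart. At 19.6 kb replicates 1 and 2 had 23 and 20 reads with summits 1 bp apart, and at 21.0 kb they had 16 and 9 reads with summits 28 bp apart. The 37 reads at 11.3 kb lay over backgrounds of 18.3 and 19.0 reads. Apart from the 14.2 kb site, folds at these 6 sites ran from 1.77 (replicate 2, 19.6 kb) to 3.53 (replicate 1, 21.0 kb). No peak at them had a q under 0.05. TRA2B had the most sites in at least 2 lists, 7 in 23457 bp, against at most 2 in any other of the genes. These counts do not allow for length, and SRSF2 had 2 such sites in 3297 bp.

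The strongest TRA2B peak by −log10 p stood outside this pattern. It was in replicate 2 alone, 6.43 kb from the start (185931558 to 185931875), and at 318 bp it was the widest of the 77. It had 6 reads over a background of 0.300, a fold of 5.39, the highest of the SR protein genes in that list, a −log10 p of 7.48 and a −log10 q of 2.63. Peaks at 15.97 and 12.4 kb were also in replicate 2 alone, with 31 and 43 reads and −log10 p of 6.10 and 4.78. The gene's known poison exon could not be set beside these peaks, as exon positions were not used here.

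**Figure D5:**
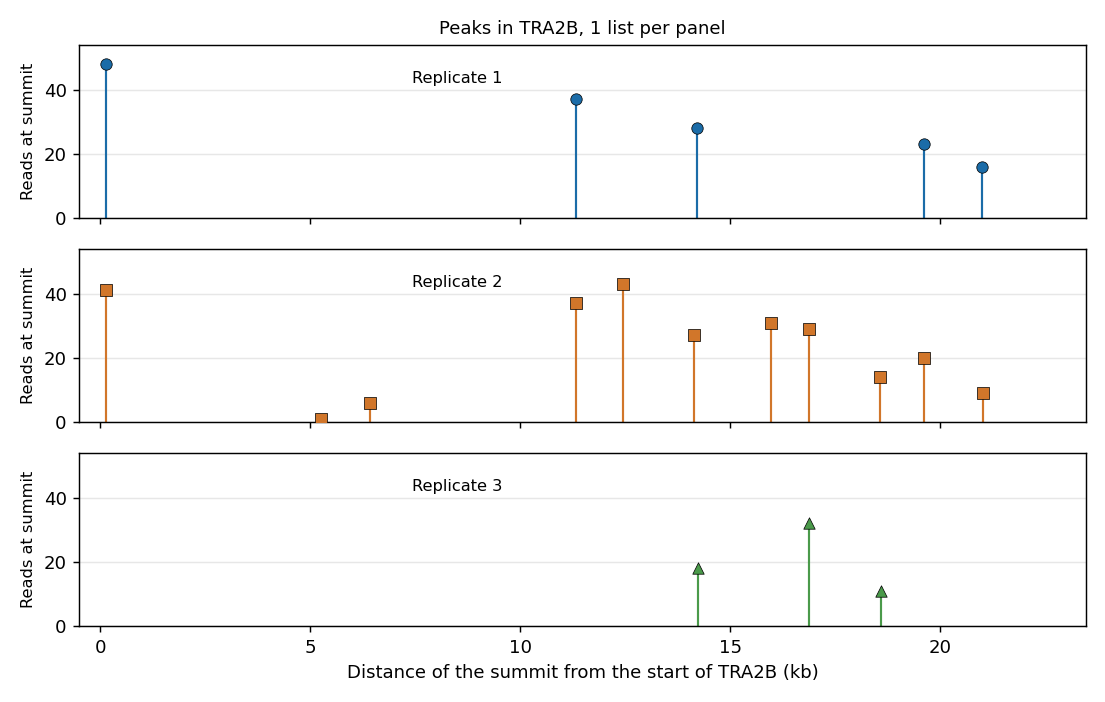
Peaks in TRA2B, 1 panel per list. The horizontal axis is the distance of the summit from the start of the gene in kb and the height is the reads at the summit. The start peak of 48 and 41 reads is in replicates 1 and 2, and between 11.3 and 21.0 kb replicates 1, 2 and 3 have 4, 8 and 3 peaks.

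Related genes were counted for comparison, without a test. Of all protein-coding genes, 38.5% had a summit in every list and 10.8% had a stretch of at least 20 bp covered by all. Of 4 other SR family genes (SRSF8, SRSF10, SRSF11 and SRSF12), 2 had a summit in every list and 0 had a stretch of at least 20 bp covered by all. Of 17 SR-related splicing and exon junction genes, 12 had a summit in every list and 6 had such a stretch, with BCLAF1 (3 stretches), the U2AF subunit U2AF2 (2) and ACIN1 (1) first. Of 12 kinases, phosphatases and import factors of SR proteins, 6 had a summit in every list and 4 had such a stretch, among them the import receptor TNPO3, the phosphatase PPP1CA and the kinase DYRK1A. Of 10 genes of nonsense-mediated decay, 8 had a summit in every list, the same number as of the 10 SR protein genes, and 5 had such a stretch, with SMG6, SMG5 and UPF1 first. Of 22 hnRNP genes, which encode splicing factors that often oppose SR proteins, 11 had a summit in every list. Such a stretch lay in 3 of them (13.6%), near the share of all protein-coding genes. The median spans of these lists, from 14.8 to 45.0 kb, were longer than the 9.66 kb of the SR protein genes. The longest was that of the nonsense-mediated decay genes, so their equal count is not like for like. By summits per 10 kb in the 3 lists (Euclidean distance on the log2 scale after adding 1), ZFP36L1, RNF215 and LMAN2L were nearest to the median of the 10 genes, each at a distance of 0.0484.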

How the data were processed

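The members and lists of genes were chosen with earlier results of these data known. Peak lists of 3 SNRPD2-overexpressing RIP-seq samples were used, grouped by title; control samples were not analysed here. The submitters' processing notes name MACS2 2.2.9.1, STAR 2.7.10b, cutadapt 4.2 and the build GRCh38. No source used here gives the caller's options or its background library. Each deposited row gives a position and summit, a score (the whole part of 10 times the −log10 p in every peak), a fold ratio, and unadjusted −log10 p-values and −log10 q-values; folds and scores are the authors' own. The lists begin at peak numbers 829, 5159 and 1884. Numbers below these are not analysed here.

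Peaks on chromosomes 1 to 22, X and Y were used. A peak belonged to a gene when its summit lay in the span of the RefSeq table (GRCh38.p14). Strand came from the RefSeq promoter table. Reads at a summit were solved from fold and −log10 p as the whole number that returned the deposited p within 0.002, with 1 read worth 0.599, 1.00 and 0.254 of the scaled pileup in replicates 1, 2 and 3. All but 3 of the peaks, in replicate 3, were solved. On simulated data 99.9%, 100% and 99.7% of read numbers were recovered. This rests on MACS2's usual formulas (a pseudocount of 1 in the fold and a Poisson tail for p). Exon annotation was not used, so classes of exon, intron and poison exon were not assigned. Sequencing depth is otherwise unknown, and PCR duplicates cannot be told from separate molecules. Percentiles are ranks of −log10 p within a list. No test was made, as there is 1 group and no control list. Members were all named; other genes were the first 3 of each list by stretches shared by all lists, and the 3 nearest in summit density. PRPF4B was not analysed here. Alternatives were other peak filters, overlap rules, span limits and leaving out each replicate. Python 3.11.15, pandas 2.3.3 and SciPy 1.17.1 were used.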

Additional observations from a re-analysis of the deposited data

How the results depend on the processing

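Of the 10 genes, 8 had a summit in every list. The count was 5 with at least 10 reads, 0 at a −log10 q of at least 3, and 8 to 9 without one replicate. It was 6 when summits that also lie in another gene were left out. The mean of 25.7 peaks per list was 0.667 at that q and 19.5 to 29.5 without one replicate. A stretch covered by all lists lay in 4 genes, in 0 with at least 100 bp or at that q, and in 4 to 7 without one replicate. Mean overlap between lists was 38.1%, but 25.5% with reciprocal overlap of 50%, and 25.8% to 51.8% without one replicate. The first of 3 equal parts of the span held 37.1% of summits, but 64.7% when only the strongest peak of each gene was used, and 31.4% to 45.6% without one replicate. The mean over the lists of the median percentile of strongest peaks was 79.9, but 98.4 by reads, and 73.8 to 90.5 without one replicate. Among peaks of at most 1000 bp it was 74.6. Genes with a start summit in at least 2 lists numbered 5, and 2 to 4 without one replicate. The cause of these changes was not tested, apart from the stricter filters, which leave fewer peaks. A narrower and a wider start window, and joining neighbouring peaks into sites, were added after the data were seen. They left the counts of 5 genes and 18 sites as they were. With peaks of at least 10 reads the sites in at least 2 lists numbered 14. No paired analysis was possible because no control lists were analysed. All SRSF4 peaks but the start peak rest on 1 to 7 reads.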
